A study of Mus musculus with 23 samples.

Results

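The 8 growth arrest genes Plk2, Plk3, Cdkn1a, Gadd45a, Gadd45b, Gadd45g, Btg2 and Cend1 were followed by their symbols across the brown adipose tissue (BAT) of 23 male mice, in which Plk3 and Cend1 were among the transcripts that differed most between 4°C and room temperature (RT). They were picked with the results of the cold exposure known, so their difference between 4°C and RT is described here without a test. Of the 8 genes, 7 were among the 14651 genes in the table of normalized counts, and Gadd45a was not analysed here. The comparisons that the choice did not rest on are those between the genotypes.

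The mitochondrial calcium uniporter gene Mcu was removed from brown fat to ask what the uniporter does there at rest and under cold. All mice, on a C57BL/6 background, had loxP sites around exon 2 of Mcu (Mcu[fl/fl]). Control mice had no other change, and BAT-Mcu-KO mice (Mcu[fl/fl];Ucp1-Cre) also carried a Cre recombinase transgene that the Ucp1 promoter drives, which directs the deletion to brown adipocytes and leaves the other cells of the tissue. The mice were 8 to 12 weeks old, and 6 controls stayed at RT and 5 were moved to 4°C, as were 6 and 6 of the BAT-Mcu-KO genotype (KO mice in what follows). Exposure to 4°C lasted 6 h, in single cages without bedding and, unless stated otherwise, without food. The food given to the mice at RT in this experiment is not stated in the sources used here, so cold, single housing and loss of food cannot be told apart.

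Sequencing gave 7129271 to 21006347 reads per mouse. The measurement is the normalized count, read number over the library's size factor. Mcu itself was 15.2 to 42.4 in the 12 KO mice and 70.8 to 136 in the 11 controls, lower by 1.66 (SE 0.22) at RT and by 1.61 (SE 0.23) at 4°C on the log2 scale (limma adjusted p = 0.00100 and 0.00367). All 10 brown adipocyte markers examined had a row in the table, with a summed normalized count of 181156 to 326080. The summed level of 10 skeletal muscle markers differed far more between mice, from 52.6 to 7932 in control mice at RT, 32.4 to 50007 in control mice at 4°C, 31.6 to 65284 in KO mice at RT and 84.3 to 11619 in KO mice at 4°C. Because whole tissue was sequenced, fewer cells of a type and less RNA per cell cannot be told apart in any of these values.

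Growth arrest genes hold cells out of the division cycle or slow their passage through it. CDKN1A, also called p21, binds and inhibits the cyclin-dependent kinases (CDKs) that drive entry into the cycle, and the GADD45 proteins bind p21, the replication clamp PCNA and the kinase MAP3K4, through which they switch on the stress kinases p38 and JNK. PLK2 and PLK3 are polo-like kinases of stress responses, unlike their relatives PLK1 and PLK4, which serve mitosis and the doubling of centrioles. BTG2 belongs to the BTG and TOB family, which recruits the CCR4-NOT deadenylase to mRNA, and CEND1 is a membrane protein first known from neurons, where it accompanies exit from the cycle. Several of these genes are textbook targets of p53, and several are also early response genes, switched on within hours by growth factors, cyclic AMP or stress. Mature brown adipocytes do not divide, while their precursors in the tissue can.

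Promoters were examined for letters that mark known response elements, since brown adipocytes answer the cold through noradrenaline and cyclic AMP. The stretches shown run 5′ to 3′ on the strand of the gene and end at the base before the RefSeq start, or at the last base before an annotated exon (GRCm38.p6). The first 4 are those of the genes with the higher levels at 4°C. The last 2 hold the complete cyclic AMP response element (CRE) and belong to genes whose mice overlapped between the temperatures. Capitals mark the CRE TGACGTCA, its short form TGACG, the CARE element TGATGNAA that ATF4 and CEBP bind, and p53 decamers, each searched on both strands.
Plk3, chr4:117133964-117134213, minus strand: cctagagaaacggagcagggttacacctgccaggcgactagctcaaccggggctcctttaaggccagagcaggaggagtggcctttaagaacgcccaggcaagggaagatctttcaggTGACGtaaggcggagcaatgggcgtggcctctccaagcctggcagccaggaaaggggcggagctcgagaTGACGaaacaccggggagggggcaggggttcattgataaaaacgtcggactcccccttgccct
Cend1, chr7:141429563-141429743, minus strand: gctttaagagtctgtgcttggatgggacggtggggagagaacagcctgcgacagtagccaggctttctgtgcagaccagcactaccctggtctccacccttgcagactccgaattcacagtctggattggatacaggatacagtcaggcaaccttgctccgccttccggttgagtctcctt
Cdkn1a, chr17:29090729-29090975, plus strand: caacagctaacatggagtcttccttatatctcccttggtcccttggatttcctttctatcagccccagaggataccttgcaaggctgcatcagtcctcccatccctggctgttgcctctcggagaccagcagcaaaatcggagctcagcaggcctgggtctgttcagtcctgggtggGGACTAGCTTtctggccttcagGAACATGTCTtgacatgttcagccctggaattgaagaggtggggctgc
Gadd45g, chr13:51846425-51846674, plus strand: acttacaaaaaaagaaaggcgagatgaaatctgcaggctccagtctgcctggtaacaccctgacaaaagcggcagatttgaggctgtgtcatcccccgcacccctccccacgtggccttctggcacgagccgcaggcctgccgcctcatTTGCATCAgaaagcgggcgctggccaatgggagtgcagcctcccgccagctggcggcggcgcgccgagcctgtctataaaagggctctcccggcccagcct
Plk2, chr13:110394794-110395043, plus strand: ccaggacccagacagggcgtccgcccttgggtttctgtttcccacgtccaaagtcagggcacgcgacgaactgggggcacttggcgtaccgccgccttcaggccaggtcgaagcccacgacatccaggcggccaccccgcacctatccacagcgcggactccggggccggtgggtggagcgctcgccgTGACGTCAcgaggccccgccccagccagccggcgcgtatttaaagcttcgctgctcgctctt
Btg2, chr1:134079156-134079405, minus strand: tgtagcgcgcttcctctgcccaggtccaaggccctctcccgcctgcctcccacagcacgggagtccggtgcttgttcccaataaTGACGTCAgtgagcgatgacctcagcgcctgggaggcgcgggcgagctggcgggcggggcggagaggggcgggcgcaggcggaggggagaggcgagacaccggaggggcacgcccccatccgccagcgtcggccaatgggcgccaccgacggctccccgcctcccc

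The complete CRE began 62 bases before the start of Plk2 and 166 before that of Btg2. It was present within 250 bases of the start in 508 of the 32817 mouse promoters in the RefSeq table (1.55%). The short CRE, which the complete one contains, stood alone 132 and 63 bases before the start of Plk3, and 17.7% of all promoters have it. A CARE element lay 101 bases before the start of Gadd45g (3.45% of all promoters), written on the other strand. Exact p53 decamers lay 73 and 51 bases before the upstream start of Cdkn1a, where 7.12% of all promoters have at least 1 and 0.250% have at least 2 that share no base. The letters right after the one at 51 differ from the decamer only in the first, and inexact matches were not searched or marked. A second start of Cdkn1a is not shown, as its 250 bases lie within exons. The shown stretch of Cend1, 181 bases long because an exon of the neighbouring gene Slc25a22 takes up the rest, held none of these letters. The E-box CACGTG (6.02%) and the TATA box TATAAA (12.4%), not capitalised here, were both present in Gadd45b and Gadd45g. These matches describe the letters alone. The complete CRE was found in Plk2 and Btg2, and the short form alone in Plk3. The genes were chosen with their cold response known, and the part of these letters in that response was not tested.

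Cold went with a higher level of 4 of the 7 genes in both genotypes. Plk3, Cend1, Cdkn1a and Gadd45g were higher in every mouse at 4°C than in any mouse of the same genotype at RT. Of all 14651 genes, 8.87% behaved so in both genotypes, 13% in control and 12.4% in KO mice. The same 4 genes were at least 1 log2 unit higher at 4°C in both genotypes, as were 5.22% of all genes. Since the genes were chosen on this contrast, nothing is read from the number. Plk2, Gadd45b and Btg2 overlapped between the temperatures in both genotypes.

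**Figure D1:**
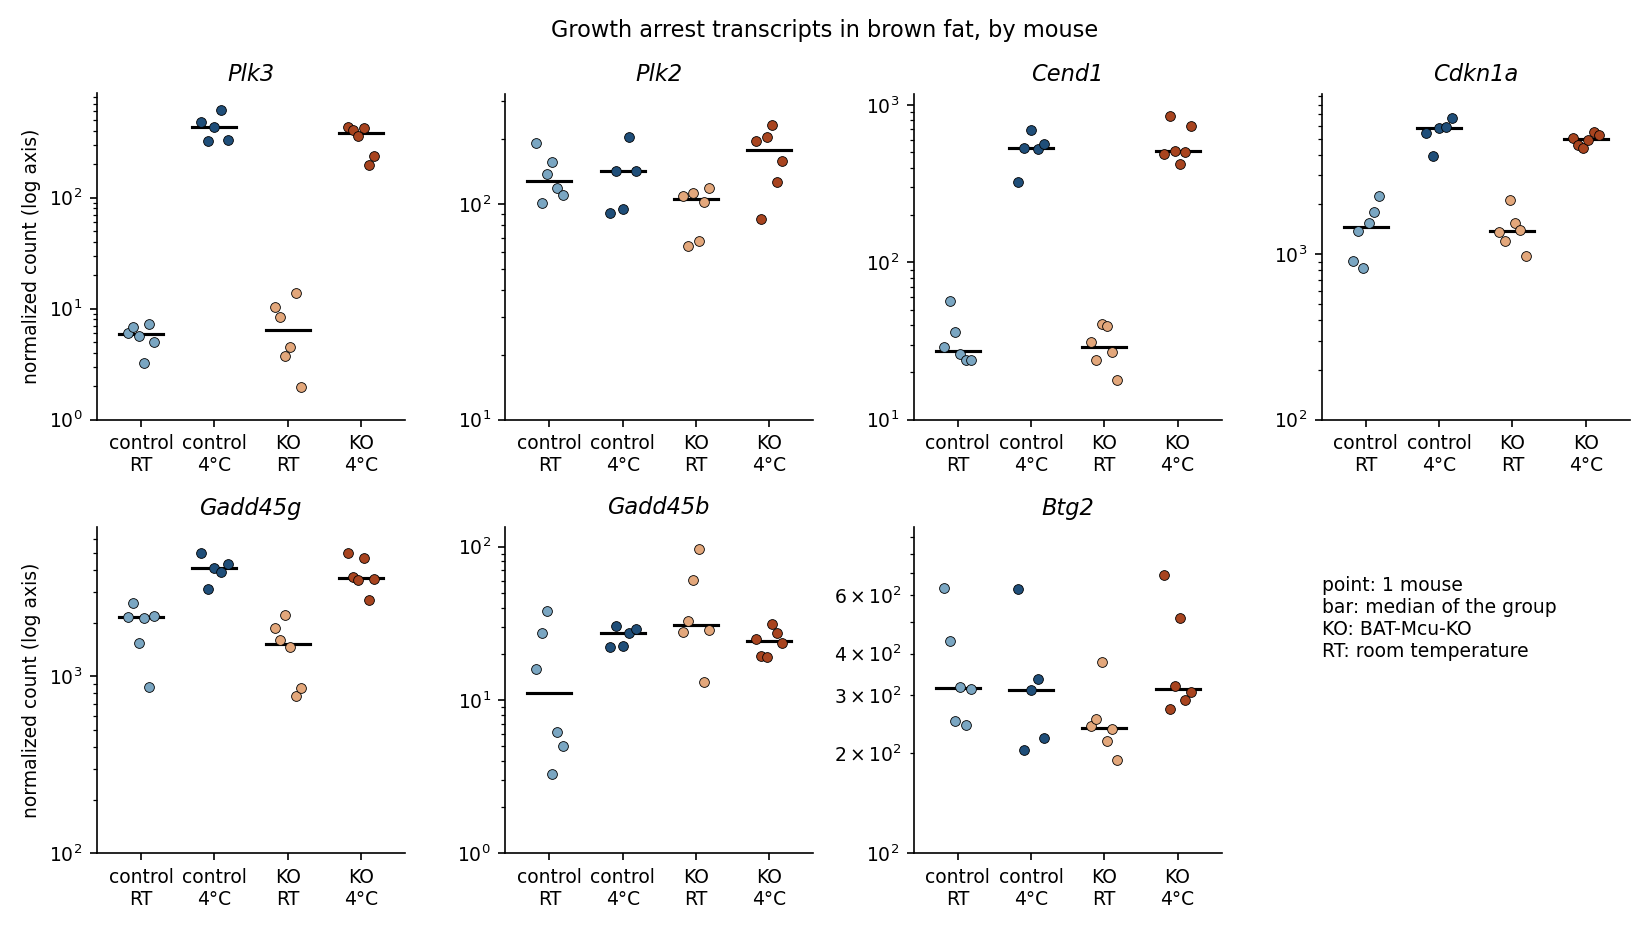
Normalized counts (log axis) of the 7 growth arrest genes in the 4 groups, with 1 point per mouse and a bar at the group median. Plk3 and Cend1 lie far apart between RT and 4°C, Cdkn1a and Gadd45g lie apart by less, and Gadd45b is spread out only at RT.

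Plk3 (GRCm38, chromosome 4, 117128655 to 117133963, minus strand) was close to absent at RT. Its normalized count in control mice at RT was 3.26 at the lowest, 5.87 at the median and 7.25 at the highest, resting on 3 to 8 reads a mouse. In the 5 control mice at 4°C it was 475, 322, 434, 617 and 333. At RT the lowest, median and highest KO mice had 1.97, 6.46 and 13.9, and their counterparts at 4°C had 197, 384 and 432. No mouse at RT came near the lowest mouse at 4°C. The mean was 5.67 ± 1.43 at RT and 436 ± 120 (SD) at 4°C in control, 76.97 times higher, and 7.16 ± 4.55 and 342 ± 102 in KO mice, 47.8 times higher. On the log2(normalized count + 1) scale the difference was 6.02 (SE 0.32) and 5.54 (SE 0.31), which placed Plk3 at rank 3 and rank 5 of 14651 genes. With 10 added in place of 1 it was 4.80 and 4.34, as the RT counts are so low. Levels between genes are compared per kilobase of exon, and on that scale Plk3 went from 2.24 to 172 in control mice, whereas its relative Plk2 was 30.3 and 30.03. The ratio of Plk3 to Plk2 per exon kilobase had a median of 0.0764 in control mice at RT and of 5.36 at 4°C, and of 0.143 and 3.17 in KO mice. The more abundant stress polo-like kinase transcript was therefore Plk2 in every mouse at RT and Plk3 in every mouse at 4°C. A stretch of 84 bases, 3.32% of the exons of Plk3, is shared with Tctex1d4 on the other strand, and reads there cannot be assigned by strand.

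Cend1 (chromosome 7, 141426446 to 141429491, minus strand) also started from a low level. In control mice at RT its normalized count was 23.8 at the lowest, 27.5 at the median and 57.2 at the highest. The 5 control mice at 4°C had 326, 533, 696, 527 and 566. In KO mice the lowest, median and highest were 17.8, 29.0 and 40.4 at RT and 424, 508 and 847 at 4°C. The groups at 4°C lay above those at RT with a wide gap in both genotypes. The mean was 32.6 ± 12.9 at RT and 529 ± 133 (SD) at 4°C in control, 16.2 times higher, and 29.96 ± 8.85 and 585 ± 166 in KO mice, 19.5 times higher. On the log2 scale these differences were 4.01 (SE 0.24) and 4.25 (SE 0.23), rank 39 and rank 21 of all genes. Slc25a22, a mitochondrial glutamate carrier gene, lies 0.253 kb away on the same strand. It did not pass the test by cold, with log2 differences of -0.11 (adjusted p = 0.413) and -0.14 (adjusted p = 0.262). Of 18 neuron and sympathetic nerve markers, 4 had a row in the table, with a summed level of 47.5 to 123 over all mice, and 1 of the 4 passed the test by cold. This was Elavl3, which encodes a neuronal RNA-binding protein, higher at 4°C in control (means of 3.76 and 8.88, log2 1.12, adjusted p = 0.0122) and with 0.58 (adjusted p = 0.182) in KO mice. The median of that sum was 84.8 and 74.7 in control mice at RT and 4°C, and 63.9 and 86.6 in KO mice. The classic sympathetic markers Th and Dbh were not among the 4. Of 9 Schwann cell markers, 1 rose and 1 fell in both genotypes (17.3% and 17.5% of all genes), and 6 passed in neither. Pmp22, a myelin protein gene also used outside nerve, rose by 1.63 and 1.45 on the log2 scale. Its mean went from 1013 to 3061 in control mice. S100b fell by 0.90 and 0.48, from a mean of 665 to 351 in control mice. The summed level of the 9 was higher in every mouse at 4°C, 3541 to 4694, than in any at RT, 1859 to 3330. The step in that sum was that of Pmp22, the only one of the 9 that passed as higher. The part of nerve and Schwann cells in the level of Cend1 was not tested.

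Cdkn1a (chromosome 17, 29090976 to 29100727, plus strand) was abundant at both temperatures. At RT the lowest, median and highest normalized counts were 829, 1463 and 2252 in control and 971, 1378 and 2121 in KO mice. At 4°C the 5 control mice had 5409, 3926, 5796, 5883 and 6691, and the KO mice had 4379, 4980 and 5455 as lowest, median and highest. The genotypes covered much the same range, and no mouse at RT reached the lowest mouse at 4°C. The mean was 3.81 times higher at 4°C in control and 3.45 times in KO, with log2 differences of 2.00 (SE 0.20) and 1.82 (SE 0.19). In added counts this was the largest step of the 7 genes, 4088 in control. The coefficient of variation was 37.2% at RT and 18.3% at 4°C for control mice, and 27.2% and 8.18% for KO mice. The nearest gene of the table on one side is Trp53cor1, the long noncoding RNA known as lincRNA-p21, 11.8 kb away on the other strand. It went the other way, from a mean of 12.4 to 4.88 in control (log2 -1.21, adjusted p = 0.0131) and from 9.11 to 3.90 in KO mice (log2 -1.06, adjusted p = 0.0235), at low counts throughout. A stretch of 273 bases, 7.68% of the exons of Cdkn1a, is shared with AC167363.2 on the other strand, and reads there cannot be assigned by strand.

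Gadd45g (chromosome 13, 51846678 to 51848468, plus strand) was the dominant measured member of its family. Its lowest, median and highest normalized counts at RT were 872, 2160 and 2601 in control and 778, 1527 and 2233 in KO mice. At 4°C the control mice had 4984, 3113, 4091, 3894 and 4306, and KO mice had 2692, 3592 and 4990. The gap between the temperatures was narrower than for the first 3 genes. The mean was 2.12 times higher at 4°C in control and 2.62 times in KO, with log2 differences of 1.15 (SE 0.25) and 1.46 (SE 0.24). Without mouse 5, the lowest control at RT, the control difference was 0.94, so that 3 rather than 4 genes were at least 1 log2 unit higher in both genotypes. Per exon kilobase Gadd45g was above Gadd45b in every mouse, by a factor of 20.6 at the lowest and 890 at the highest.

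Gadd45b (chromosome 10, 80930073 to 80932204, plus strand) was low and was the most scattered of the 7 genes at RT. The 6 control mice at RT had 16.0, 27.2, 37.8, 3.26, 6.21 and 4.97, on 3 to 40 reads. The 6 KO mice at RT had 27.6, 32.6, 60.1, 95.9, 13.0 and 28.6. At 4°C the mice were close together, with 22.3 to 30.4 in control and 19.2 to 31.1 in KO. The coefficient of variation was 88.0% and 70.1% at RT against 14.2% and 19.1% at 4°C. The cold difference was 1.14 (SE 0.47) in control and -0.56 (SE 0.45) in KO mice on the log2 scale, and no mouse at 4°C lay above every mouse at RT. The summed skeletal muscle markers of the same mice were, in the same order, 7932, 2299, 3200, 2353, 3081 and 52.6 in control mice at RT. In KO mice at RT they were 1825, 3958, 65284, 42524, 31.6 and 46984. The lowest of each group in muscle markers had 4.97 and 13.0 of Gadd45b. The KO mice with muscle sums of 65284, 42524 and 46984 had 60.1, 95.9 and 28.6. Control mice with like muscle sums, 2353 and 2299, had 3.26 and 27.2. At 4°C the muscle sum ran from 32.4 to 50007 over both genotypes and Gadd45b stayed within 19.2 to 31.1. These values are a description, and the part of muscle in the level of Gadd45b was not tested. The genotype difference with the muscle sum in the model is given with the genotypes.

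Plk2 (chromosome 13, 110395046 to 110400844, plus strand) was of the same order in all groups. The lowest, median and highest normalized counts were 102, 128 and 191 in control and 63.9, 106 and 119 in KO mice at RT. At 4°C the control mice had 91.0, 143, 94.6, 204 and 142, and the KO mice had 85.0, 178 and 233. In KO mice 5 of 6 at 4°C lay above every mouse at RT, and in control 1 of 5 did. The log2 difference was -0.04 (SE 0.25) in control, -0.21 to 0.08 with a mouse left out, and 0.76 (SE 0.23) in KO mice.

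Btg2 (chromosome 1, 134075170 to 134079120, minus strand) likewise overlapped. In control mice it was 243, 315 and 633 at the lowest, median and highest at RT, and 627, 205, 310, 336 and 222 at 4°C. The KO mice had 191, 239 and 379 at RT, against 272, 313 and 689 at 4°C. The highest control mouse was 2.60 times the lowest at RT and 3.06 times at 4°C. The log2 difference by cold was -0.14 (SE 0.28) in control, -0.39 to 0.03 with a mouse left out, and 0.59 (SE 0.26) in KO mice.

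**Figure D2:**
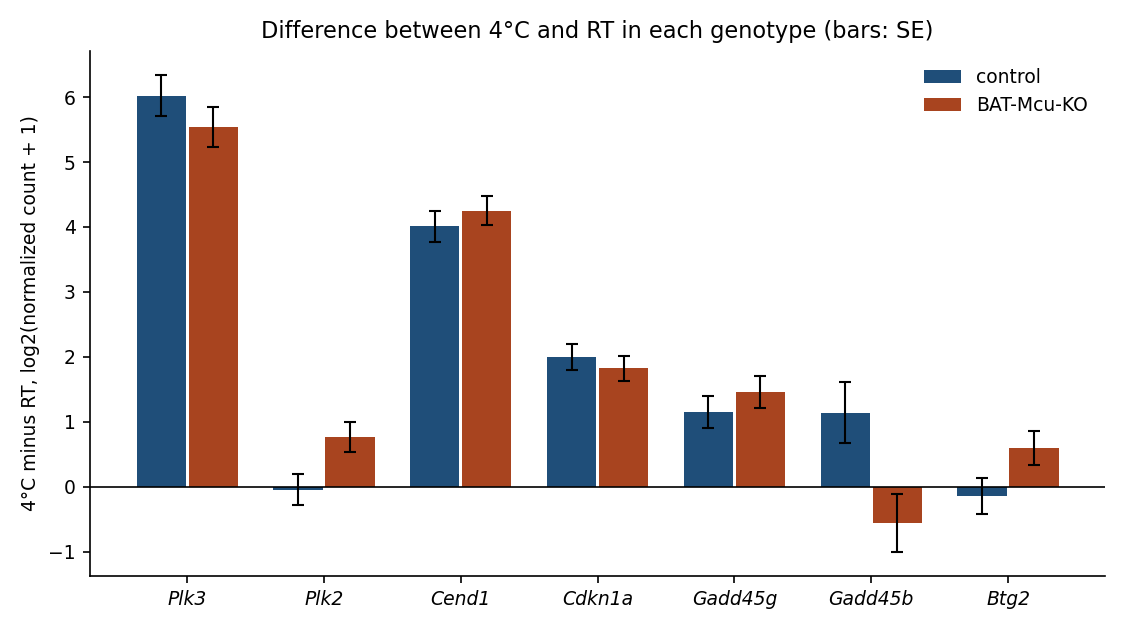
Difference between 4°C and RT on the log2(normalized count + 1) scale for each gene in control and KO mice, with error bars of 1 SE. Plk3 stands at 6.02 and 5.54, Cend1 at 4.01 and 4.25, and Plk2, Gadd45b and Btg2 lie on either side of 0 in the genotypes, with the control values of Plk2 and Btg2 within 1 SE of 0 and changing sign when some mice were left out.

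Levels per kilobase of exon put the 7 genes in a different order at RT and at 4°C. In control mice at RT the mean was 1638 for Gadd45g, 409 for Cdkn1a, 133 for Btg2, 30.3 for Plk2, 18.4 for Cend1, 9.996 for Gadd45b and 2.24 for Plk3. At 4°C Gadd45g (3476) and Cdkn1a (1560) stayed on top and were followed by Cend1 (298), Plk3 (172), Btg2 (124), Plk2 (30.03) and Gadd45b (16.5). Neighbours in this order overlapped between mice at RT from Plk2 downwards and at 4°C from Cend1 to Btg2, while the others lay apart.

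Genotype made no difference that passed the test for any of the 7 genes. At RT 0 of 7 passed (limma with Benjamini-Hochberg adjustment over all genes), where 0.0478% of all genes did. At 4°C it was 0 of 7 against 0.0751% of all genes, and for the interaction, the cold difference in KO minus that in control mice, 0 of 7 against 0%. At an unadjusted p under 0.05 the numbers were 2, 0 and 2 of the 7 genes, where 5.15%, 6.98% and 5.99% of all genes were. DESeq2 and edgeR on the recovered reads also called 0 of 7 in each of the 3 comparisons. The median of the 7 differences was -0.10 at RT and -0.10 at 4°C, and that of all genes was 0.00 and 0.01.

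The genes with the strongest cold difference had like levels in both genotypes, within intervals that leave room for moderate differences. For Plk3 the KO minus control difference was 0.11 (95% interval -0.52 to 0.75) at RT and -0.37 (-1.03 to 0.29) at 4°C on the log2 scale, with an interaction of -0.48 (-1.40 to 0.43). For Cend1 it was -0.10 (-0.57 to 0.37) and 0.14 (-0.35 to 0.63), with an interaction of 0.24 (-0.44 to 0.92). Cdkn1a had the narrowest intervals, 0.02 (-0.37 to 0.42) at RT, -0.15 (-0.57 to 0.27) at 4°C and -0.17 (-0.75 to 0.40) for the interaction. For Gadd45g the values were -0.41 (-0.91 to 0.09), -0.10 (-0.62 to 0.43) and 0.31 (-0.41 to 1.03). A change of the cold difference by more than 1 log2 unit in either direction thus lay outside the interval for Cend1 and Cdkn1a only.

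Gadd45b, Plk2 and Btg2 came closest to a difference, and none passed the adjustment. Gadd45b was higher in KO mice at RT by 1.57 (0.65 to 2.49, limma adjusted p = 0.712), with means of 43.0 and 15.9, and 2 of 6 mice lay above every control. With the summed muscle markers as a covariate, added after seeing the data, it was 1.39 (adjusted p = 0.689). At 4°C the difference was -0.12 (-1.09 to 0.84), and the interaction was -1.70 (-3.03 to -0.36, limma adjusted p = 0.780). Plk2 was lower in KO mice at RT by 0.51 (interval of the difference -0.99 to -0.03, limma adjusted p = 0.940), and its interaction was 0.81 (0.11 to 1.51, adjusted p = 0.801). Btg2 had -0.48 (-1.02 to 0.07) at RT, where 4 of 6 KO mice lay below every control, and 0.26 (-0.31 to 0.83) at 4°C. Over all alternatives the adjusted p of Gadd45b at RT was 0.195 at the lowest, that of the Plk2 interaction 0.482 and that of the Btg2 interaction 0.498.

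**Figure D3:**
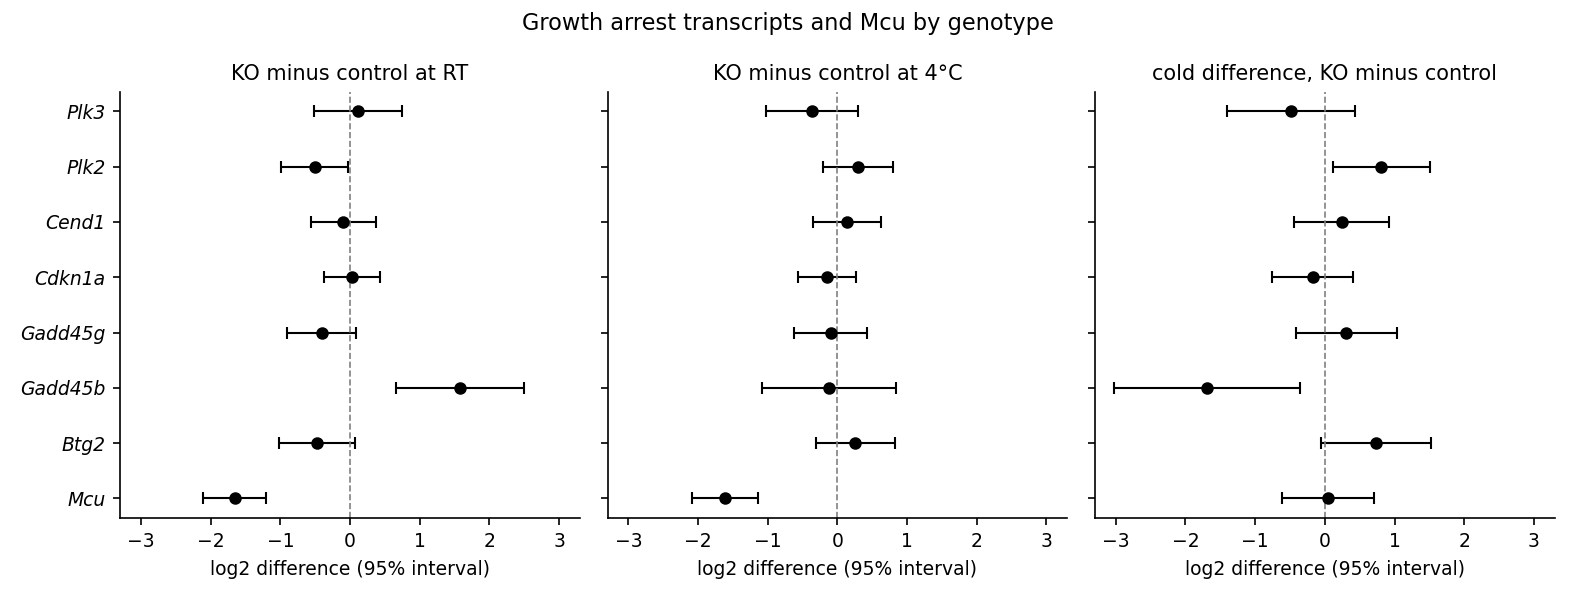
Difference between KO and control mice at RT, at 4°C and in the cold difference, on the log2 scale with 95% intervals, for the 7 growth arrest genes and for Mcu. Mcu lies at -1.66 and -1.61 away from 0, and the intervals of the 7 genes cross 0 except those of Gadd45b and Plk2 at RT and in the cold difference.

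The relatives of the 7 genes did not move as one group under cold. Of 15 other PLK, CDKN, BTG and TOB genes 10 had a row, of which 1 rose and 4 fell in control mice, and 3 rose and 4 fell in KO mice (limma adjusted p under 0.05, which 46% and 43.3% of all genes reached, with 22.3% and 21.4% higher and 23.7% and 21.9% lower). These genes and the further pathway genes were not part of the choice, so their cold differences were tested, though the lists too were drawn up with earlier results of these data known. The median log2 difference of the 10 genes was -0.24 in control and -0.29 in KO mice, against -0.02 for all genes in both. The shares of all genes given here apply to each list count that follows.

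Cdkn2c, Cdkn2d and Cdkn1b, other CDK inhibitors, fell in both genotypes where Cdkn1a was higher. Cdkn2c (p18), an inhibitor of CDK4 and CDK6, fell from a mean of 912 to 249 in control (log2 -1.84, SE 0.16, adjusted p = 6.78e-10) and from 879 to 261 in KO mice (log2 -1.79, SE 0.15). Cdkn2d (p19) fell by 1.72 and 1.07 on the log2 scale, and Cdkn1b (p27) by 0.49 and 0.49. Cdkn2b (p15), at low counts, fell by 1.60 in control (adjusted p = 0.0140) and had -0.76 (adjusted p = 0.228) in KO mice. Cdkn1c (p57) had 0.26 and 0.04, neither past the test. Per exon kilobase Cdkn1a and Cdkn2c were at like levels in control mice at RT, 409 ± 152 and 340 ± 73.3 (SD), and stood at 1560 ± 286 and 92.8 ± 8.67 at 4°C. Of the summed level of the 6 inhibitors, Cdkn1a made up 29.7% to 53.7% in control mice at RT (median 45.6%) and 83.0% to 90.2% at 4°C (median 88.6%). In KO mice the median share was 43.0% at RT and 86.3% at 4°C. The shares did not overlap between the temperatures in either genotype. They contain the Cdkn1a level itself and so are a description.

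**Figure D4:**
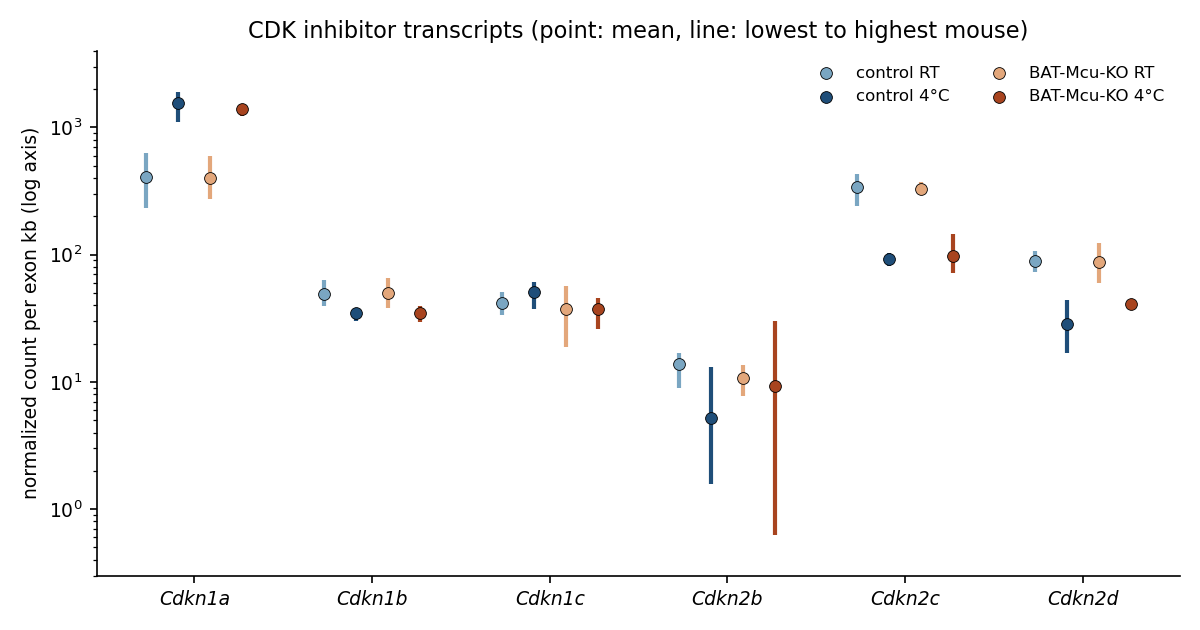
Normalized counts per exon kilobase (log axis) of 6 CDK inhibitor genes in the 4 groups, with points at group means and lines from the lowest to the highest mouse. Cdkn1a lies higher at 4°C, Cdkn2c and Cdkn2d lie lower, and Cdkn1b lies slightly lower.

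Among the other family members, Tob1, an antiproliferative relative of Btg2, rose by 0.90 (SE 0.15) in control and 0.82 (SE 0.15) in KO mice. Btg1 had 0.39 (adjusted p = 0.0651) in control and rose by 0.49 (adjusted p = 0.0158) in KO mice. Btg3, at low counts, had 0.97 (adjusted p = 0.114) and rose by 1.57 (adjusted p = 0.00915). Tob2 had 0.01 in control, a sign that turned under 3 of the other scalings and count tests, and fell by 0.23 in KO mice (adjusted p = 0.0419). Plk4, the centriole kinase, had -0.58 (adjusted p = 0.0697) and -0.35 (adjusted p = 0.264). For none of these relatives did genotype or the interaction pass the test.

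Partners of the proteins moved in both directions. Of 6 genes for partners of PLK2, PLK3 and CEND1, 2 rose and 3 fell in control and 2 rose and 2 fell in KO mice. Ranbp9, which encodes the scaffold RanBPM that binds CEND1, rose from 294 ± 73.4 to 973 ± 363 (SD) in control and from 333 ± 75.9 to 1083 ± 334 in KO mice, by 1.68 on the log2 scale in both. Dyrk1b, which encodes a kinase of quiescent cells that forms a complex with CEND1 and RanBPM, fell by 1.32 (adjusted p = 5.85e-07) in control and fell by 1.49 (adjusted p = 4.24e-08) in KO mice. Sipa1l1, whose protein PLK2 marks for degradation in neurons, fell by 1.04 and 0.88. Ranbp10, a relative of Ranbp9, rose by 0.45 and 0.34 (adjusted p = 0.0120 and 0.0435), but not past the threshold after scaling to the 75th percentile.

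The kinases below the GADD45 proteins were mixed as well. Of 14 genes of the p38 and JNK cascades 3 rose and 5 fell, in control and in KO mice alike. Map3k4, which encodes the kinase that GADD45 proteins bind, fell by 0.91 and 1.00, from 176 ± 52.5 to 90.4 ± 14.2 in control mice. Map2k6, which encodes an activator of p38, fell by 2.13 in control and fell by 1.90 in KO mice. Mapkapk2, which encodes a kinase that p38 activates, rose by 1.84 and 1.69, and Map2k4, an activator of JNK, by 0.69 and 0.52. Pcna, the clamp that p21 and GADD45 proteins bind, fell by 0.46 (adjusted p = 0.00586) and 0.54 (adjusted p = 0.00108).

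Targets and regulators of p53 moved both ways. Of 27 measured genes of the p53 pathway 8 rose and 10 fell in control, and 7 rose and 11 fell in KO mice, with a median log2 difference of -0.13 and -0.24. Trp53inp1, whose product promotes p53 activity and autophagy, rose by 2.18 and 2.07, with a wide spread at 4°C (2761 ± 2315 in control mice). Sesn2, a stress sensor of amino acids, rose by 1.48 and 1.82. Dram1, which encodes a lysosomal protein of autophagy, fell by 1.61 and 1.65, and Pidd1, which encodes a death domain protein, fell by 1.53 and 1.36. Trp53 itself, picked here after its values were seen, had -0.33 (adjusted p = 0.122) and -0.24 (adjusted p = 0.251), and its ubiquitin ligase Mdm2, picked in the same way, rose by 0.81 and 0.85.

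Genes of the cycle that the CDK inhibitors act on moved in both directions, with more of them lower at 4°C. Of 20 cyclin, CDK, RB and E2F genes 3 rose and 9 fell in control (22.3% and 23.7% of all genes). In KO mice 4 rose and 10 fell (21.4% and 21.9% of all genes). The median log2 difference was -0.34 and -0.38. Cdk6, which encodes a kinase of the G1 phase, fell from 710 ± 146 to 144 ± 39.5 (SD) in control and from 668 ± 56.1 to 157 ± 29.6 in KO mice (log2 -2.30 and -2.11). Ccne1, which encodes cyclin E1, fell by 2.45 and 2.07, and Lin9, which encodes part of the DREAM complex, by 2.20 and 1.57. E2f2, which encodes an E2F factor, rose by 2.43 and 2.51 from low counts. Of 18 proliferation markers 10 had a row, with a summed level of 300 to 481 over all mice, and only Pcna passed the test in both genotypes. Mcm2, part of the replication helicase, fell in control (log2 -0.99, adjusted p = 0.0210), and Ccna2, which encodes cyclin A2, rose in KO mice (log2 1.35, adjusted p = 0.0419). Mki67 and Ccna2 were at means under 15 in every group, and Mcm2, Mki67 and Ccna2 were picked after their values were seen.

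Genes of quiescence and of the FOXO factors, which hold resting cells out of the cycle, rose and fell in unequal numbers. Of 16 measured 7 rose and 3 fell in control (22.3% and 23.7% of all genes). In KO mice 7 rose and 5 fell (21.4% and 21.9% of all genes). Gas1, which encodes a membrane protein first found in growth-arrested cells, rose from 158 ± 22.98 to 1229 ± 245 (SD) in control and from 200 ± 80.6 to 1404 ± 638 in KO mice (log2 2.94 and 2.77). Klf4, which encodes a factor that can switch on Cdkn1a, rose by 1.45 and 1.68, and Ddit4, which encodes an inhibitor of mTORC1, by 1.41 and 1.11. Gas2 fell by 0.99 and 0.88. The adjusted p of Ddit4 in KO mice was 0.0389, and it passed the threshold no longer when any of 8 mice of that genotype was left out.

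Immediate early genes, the class to which Plk2, Plk3 and Btg2 are also counted, rose in the larger number. Of 18 measured 10 rose and 2 fell in control (22.3% and 23.7% of all genes). In KO mice 11 rose and 0 fell (21.4% and 21.9% of all genes). Nr4a3 rose by 4.73 and 5.42, Nr4a1 by 4.25 and 3.69, Atf3 by 5.49 and 3.78, and Arc by 3.26 and 3.59. These genes were named for the largest cold differences called alike in both genotypes, so lower values in Plk2 and Btg2 are not a result. The cold difference of Plk3 (6.02 and 5.54), which was picked with that difference known, was above each of them. The median of the 18 was 1.21 in control and 1.29 in KO mice. Junb, Egr1, Egr2 and Ier3 lay below Plk2 and Btg2 in both genotypes. Egr1 was the one gene of all these lists that passed the test by genotype, lower in KO mice at RT (log2 -2.65, SE 0.42, limma adjusted p = 0.00636). Its level varied widely in control mice at RT, 451 ± 420 (SD), against 52.2 ± 25.6 in KO mice at RT. At 4°C the means were 73.5 and 72.7, a log2 difference of -0.03. Over the 18 genes the median KO minus control difference was -0.30 at RT and -0.18 at 4°C, against 0.00 and 0.01 for all genes. The cause of the difference in Egr1 was not tested.

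**Figure D5:**
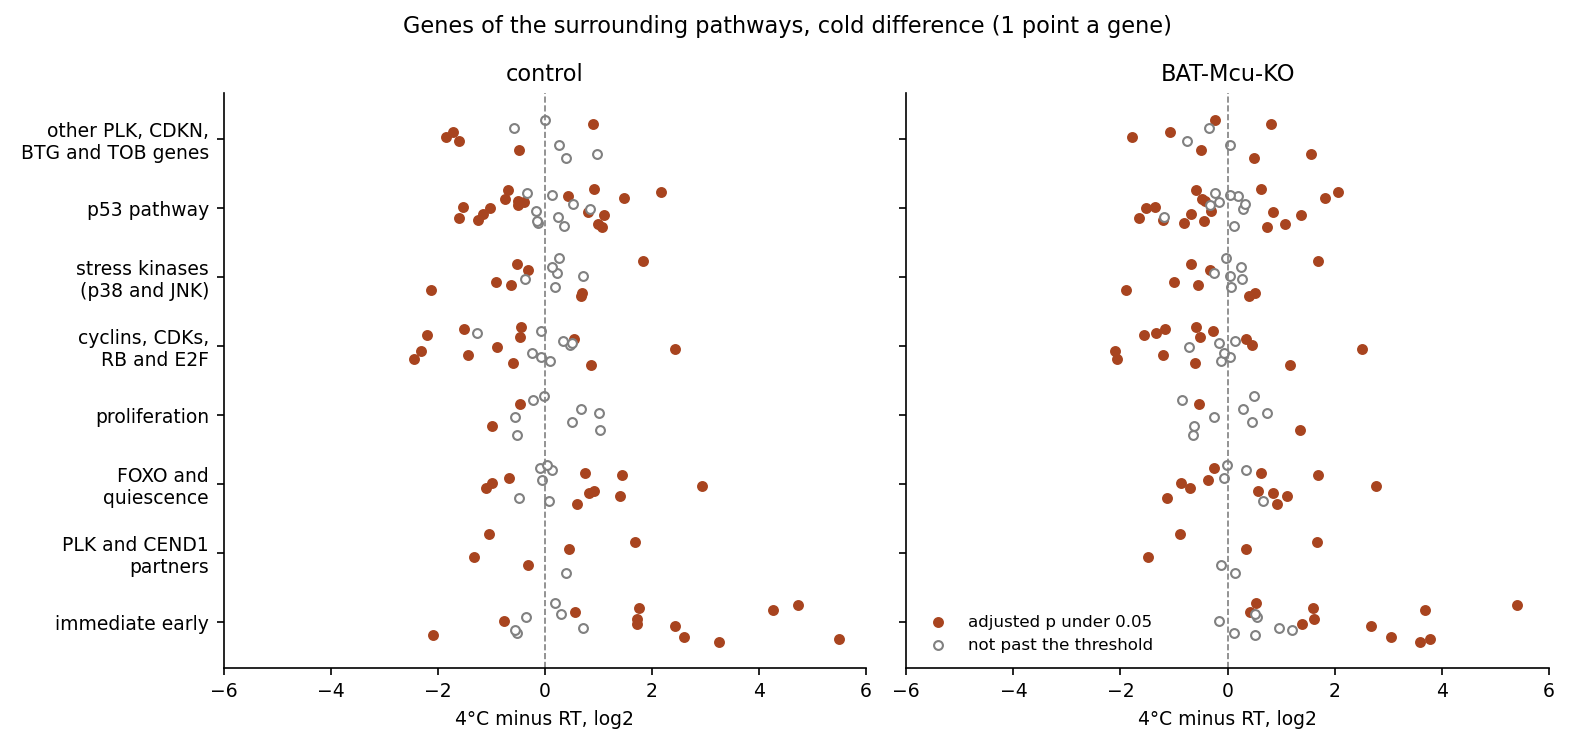
Difference between 4°C and RT on the log2 scale in control and KO mice for genes of 8 lists around the growth arrest genes, with 1 point per gene, filled where the limma adjusted p was under 0.05. Cyclin, CDK, RB and E2F genes lie mostly below 0, immediate early genes mostly above, and the p53 and stress kinase lists on both sides.

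Some transcripts of other cell types were also higher at 4°C. Of all genes, 17.3% rose and 17.5% fell in both genotypes. Of 10 endothelial markers 4 rose and 1 fell in both genotypes, and their summed level had a median of 6804 in control mice at RT and 10363 at 4°C. Of 10 macrophage markers 3 rose in control, 6 rose in KO mice and 3 rose in both, with a median sum of 1110 and 1294 in control and 1201 and 1640 in KO mice. Of 9 measured fibroblast and preadipocyte markers 1 rose in both genotypes and 7 passed in neither. Of 2 measured lymphocyte markers 0 passed in control and 1 fell in KO mice. Of 10 skeletal muscle markers 0 passed the test in any comparison. The part of these cells in the levels of the growth arrest genes was not tested. With the muscle sum in the model, an alternative added after seeing the data, the same 4 genes were at least 1 log2 unit higher in both genotypes. Since the genes were chosen on their cold difference, this is a description.

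Genes whose levels over the 23 mice ran closest to those of each growth arrest gene were found by the root mean square difference of centred log2 values. The difference between RT and 4°C is part of this measure. A gene with a large cold difference is therefore matched to genes with a like one, and the matches are a description. Closest to Plk3 were Dio2 (0.69), Ppargc1a (0.73) and 6030408B16Rik (0.74). Dio2 and Ppargc1a encode the enzyme that makes active thyroid hormone and a coactivator of mitochondrial genes, both well known for their rise in cold brown fat. Their log2 differences by cold were 5.19 and 4.96 for Dio2, 5.10 and 4.33 for Ppargc1a, and 5.29 and 6.56 for 6030408B16Rik. Closest to Cend1 were Kcnh6 (0.54), Gm16062 (0.59) and Fam64a (0.62), closest to Cdkn1a were Sdc4 (0.28), Rbm47 (0.31) and Ankrd9 (0.33), and closest to Gadd45g were Cyr61 (0.36), Crcp (0.39) and Ahsa1 (0.40). Gadd45b was nearest to Wfdc1 (0.71), Fhl3 (0.72) and Sbk2 (0.73), of which Fhl3 is known from skeletal muscle. Plk2 was nearest to Phtf1 (0.33), Gng11 (0.35) and Lpar6 (0.35), and Btg2 to Alg9 (0.32), Ypel2 (0.37) and Ube2l6 (0.38). Near Plk3 on the chromosome, Btbd19 (2.93 kb away) rose by 0.92 (adjusted p = 0.0197) and 1.14 (adjusted p = 0.00350).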

How the data were processed

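RNA was isolated from the BAT of 23 mice, libraries were made by Smart-seq2, and paired reads were aligned to mm10 by the authors with STAR (version 2.4.0j) and counted over exons with HTSeq without regard to strand. The signal that the authors deposited is the normalized count, the reads of a gene divided by a DESeq2 size factor, for 14651 genes that reached 8 reads in 6 samples or more. Each mouse is a separate sample, with its group taken from the labels, and 0 per-sample columns were left out. All values (100%) were whole multiples of 1 read within 0.01, which gave back the reads used for depth. Read numbers set counting error only, since PCR copies are not independent molecules.

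The 7 genes, the pathway lists and the tests were chosen with earlier results of these data known. Normalized counts plus 1 were put on the log2 scale and fitted with limma (version 3.58.1, R version 4.3.3), with 4 group means in 1 model, a variance trend and Benjamini-Hochberg adjustment over all genes at 0.05. Alternatives were a pseudocount of 0.5 or 10, a mean normalized count of 50 or more, 75th percentile scaling, quantile normalization, no trend, only the compared groups, a replicate block, DESeq2 (version 1.42.0) and edgeR (version 4.0.16) on the recovered reads, each mouse left out in turn and, added after seeing the data, the summed muscle markers as a covariate. On the recovered reads DESeq2 called 6875 and edgeR 6780 genes by cold in control mice, against 6735 by limma. All genes of the chosen families were named, up to 4 genes of each other pathway list by the mean size of the cold difference among those called alike in both genotypes, and the 3 genes nearest in pattern. Gene positions and exon lengths are from GENCODE M21 on GRCm38, matched by symbol for 93.9% of the genes, and promoters are from RefSeq (GRCm38.p6), matched for 8 of 8 genes. The limma fit was tested on simulated data.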

Additional observations from a re-analysis of the deposited data

Results flagged for a closer look

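In 3 of 32 groups of values for the growth arrest genes and Mcu, 1 mouse lay far from the others of its group by Dixon's test, which chance does in about 1 of 20 groups. Btg2 had a normalized count of 379 in mouse 3 of the BAT-Mcu-KO group at RT, against 255 in the next mouse. Cend1 had 57.2 in mouse 2 of the control group at RT, against 35.9 in the next, and both values lie far below those at 4°C. Mcu had 15.2 in mouse 4 of the BAT-Mcu-KO group at RT, below the next value of 36.2 and on the same side of the controls. That mouse also had the highest Gadd45b of all, 95.9, and a summed muscle marker level of 42524.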

How the results depend on the processing

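Under 11 alternatives for genotype and 10 for the interaction (all but only the compared groups), and with each of the 23 mice left out, 0 growth arrest genes passed the test, 7 genes being tested except for 6 under the filter at a mean of 50. Mcu passed at both temperatures in each of these, with log2 differences of -1.74 to -1.44 at RT and -1.75 to -1.52 at 4°C when a mouse was left out. Of 704 alternative values for the 7 genes by genotype or interaction, 689 kept their direction. The near-zero difference of Cdkn1a at RT turned to -0.0039 with 75th percentile scaling, -0.00023 with quantile normalization, -0.021 with DESeq2 and -0.023 with edgeR, and to between -0.12 and 0.17 with a mouse left out. Leaving out a mouse also turned Plk3 at RT (-0.10 to 0.36), Cend1 at RT (-0.19 to 0.073), Cend1 at 4°C (-0.024 to 0.25) and Gadd45g at 4°C (-0.19 to 2.83e-06). The cause was not tested.

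Of 185 list and marker genes, 93 (control) and 98 (BAT-Mcu-KO) were called by cold, 87 to 99 and 82 to 99 with a mouse left out. Proliferation genes called in BAT-Mcu-KO mice numbered 2, but 4 after quantile normalization and 1 with DESeq2, edgeR, only the compared groups or the filter at a mean of 50. Leaving out mouse 2, 3 or 4 of those at RT, or mouse 2 or 5 at 4°C, gave 1, and leaving out mouse 5 at RT gave 4. Leaving out control mouse 1 at RT gave 1 rather than 2 in control mice. With that filter 1 rather than 2 were called in control mice, and 9 rather than 14 cyclin and CDK genes in BAT-Mcu-KO mice. With the compared groups alone, 3 rather than 5 partner genes were called in control mice. Scaling to the 75th percentile changed the all-gene median cold difference of the control mice, -0.02, to -0.13. DESeq2 called more genes by genotype than limma over the whole table, 20 against 7 at RT, 23 against 11 at 4°C and 28 against 0 for the interaction, where edgeR called 0 and limma had 878 genes at an unadjusted p under 0.05.

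Replicate numbers were not used to pair the mice, which are different animals. The deviations of same-numbered mice had a mean correlation of -0.04 between the genotypes at RT. At 4°C the mean was 0.12, with 0.04 at the lowest and 0.22 at the highest, and 2 of 5 mice correlated best with their own number. With the replicate block 0 of 7 growth arrest genes passed by genotype or interaction, 95 and 98 list genes were called by cold, and among all genes 7 were called by genotype at RT and 7, in place of 11, at 4°C. At 2 to 15 reads a mouse, the level of Plk3 at RT is known only roughly.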
